A study of Mus musculus with 12 samples.

Results

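Oxidative phosphorylation is carried out by a set of inner-membrane complexes whose subunits come from 2 genomes, and the genes for both sets were followed here in mouse blood stem and progenitor cells. The members were the 13 protein-coding genes of the mitochondrial genome and the protein-coding nuclear genes whose symbols begin with Nduf, Uqcr, Atp5 or Cox4 to Cox8, with Sdha, Sdhb, Sdhc, Sdhd and Cycs. The symbol rule found 108 genes, 13 mitochondrial and 95 nuclear, of 20698 genes with at least 1 read. The nuclear genes comprised 36 subunits of complex I, 4 of complex II, 8 of complex III, 19 of complex IV, 17 of complex V, 8 assembly factors (the Ndufaf genes), the cytochrome c gene Cycs, and Atp5s and Cox7a2l, which were kept apart as accessory factors. Of the 108, 104 passed the filter on low counts and were tested; Cox7b2, Cox8b, Cox8c and Ndufa4l2 did not.

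RNA came from Flk2- Lin-Sca-1+Kit+ cells sorted from mouse bone marrow, a fraction that holds the blood stem cells. There were 3 libraries for each of 4 genotypes. Mdmx-Tg/Pu.1-URE-/- mice, called double mutants below, carried both an Mdmx transgene and loss of the Pu.1 upstream regulatory element on both alleles; Mdmx-Tg mice carried the transgene alone, Pu.1-URE-/- mice lacked the element alone, and Wild-type mice had neither change. MDMX, encoded by Mdm4, restrains p53, and the element is an enhancer of Spi1, which encodes the transcription factor PU.1. The promoter of the transgene, the strain, the age and the sex of the mice are not given in the sources used here. The summed level of 4 Y-linked genes was 4.91, 199.9 and 222 CPM over the double mutant libraries and reached 214 CPM in 1 Wild-type library, whereas it was at most 4.04 CPM in Mdmx-Tg and 5.7 CPM in Pu.1-URE-/- libraries, so that Y-linked RNA was not balanced across the genotypes. The labels give each library a mouse number of its own, and p-values measure the spread between these libraries.

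In the chain, complex I (NADH dehydrogenase), complex II (succinate dehydrogenase) and complex III (the cytochrome bc1 complex) pass electrons toward cytochrome c, complex IV (cytochrome c oxidase) hands them to oxygen, and complex V (ATP synthase) uses the proton gradient to make ATP. Complex II is built from nuclear genes alone, whereas the other complexes need subunits from both genomes. Blood stem cells are known for a quiet, largely glycolytic metabolism, and their exit from quiescence for a greater use of mitochondrial respiration. Transcripts of the mitochondrial genome are made as long polycistronic RNAs from both strands and then cut apart.

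The libraries held 47271286 to 55067735 estimated reads on annotated genes, and mitochondrial ribosomal and transfer RNAs were not analysed here. Mdm4 was at 163 to 535 CPM (reads scaled to a common library size by the TMM method) in every transgenic library and at 35.8 to 93.9 CPM in the 6 without the transgene. Spi1 stood at 0.0198 to 3.48 CPM in double mutants, 3.69 to 21.6 CPM in Mdmx-Tg, 8.73 to 23.9 CPM in Pu.1-URE-/- and 5.34 to 38.0 CPM in Wild-type libraries, so that the Pu.1-URE-/- and Wild-type ranges overlapped. Kit and Flt3, both of the gate, moved with loss of the element, while Ly6a, which encodes Sca-1, overlapped across genotypes. Ly6a stood at 41.9 to 58.2 CPM in double mutants and 43.8 to 66.7 CPM in Pu.1-URE-/- libraries. With the element it ranged from 43.1 to 85.2 CPM in Mdmx-Tg and from 15.0 to 97.2 CPM in Wild-type libraries. Kit stood at 165 to 261 CPM in double mutants and 171 to 228 CPM in Pu.1-URE-/-, against 270.2 to 325 CPM in Mdmx-Tg and 274 to 328 CPM in Wild-type libraries, and was lower without the element (edgeR adjusted p = 0.0482). Flt3, which encodes Flk2, stood at 35.6 to 53.7 CPM in double mutants and 10.8 to 51.9 CPM in Pu.1-URE-/-, against 5.82 to 22.2 CPM in Mdmx-Tg and 7.06 to 13.6 CPM in Wild-type libraries, and was higher (edgeR adjusted p = 0.0330). The summed level of 19 neutrophil marker genes ran from 34505 to 58695 CPM in double mutants and from 53449.6 to 147940.1 CPM in Pu.1-URE-/- libraries, against 871 to 1656 CPM in Mdmx-Tg and 1281 to 2575 CPM in Wild-type libraries. Wild-type 1 had 31.163% immunoglobulin reads, and Mdmx-Tg 2 and double mutant 3 had the fewest genes with 10 reads, 12824 and 12952, with Mdmx-Tg 1 close to them at 13004. Wild-type 1, Mdmx-Tg 2 and double mutant 3 were left out together in an added check.

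The first question was whether RNA from the 2 genomes kept the same proportion across genotypes. The 13 mitochondrial genes took on average a larger part of the reads in transgenic than in other libraries, while the average of the nuclear subunit genes was alike or lower. Mitochondrial genes held 2.21%, 2.43% and 3.23% of the reads in double mutants and 3.25%, 3.33% and 2.52% in Mdmx-Tg, against 1.47%, 1.84% and 1.66% in Pu.1-URE-/- and 1.46%, 2.39% and 1.61% in Wild-type libraries. Nuclear-encoded subunits averaged 1.99 ± 0.341% of the reads in double mutants, 2.05 ± 0.193% in Mdmx-Tg, 1.93 ± 0.234% in Pu.1-URE-/- and 2.16 ± 0.572% in Wild-type libraries (SD, n = 3 each). This nuclear sum also holds the reads of Cycs. In bulk RNA, a change in the number of cells of a type and a change in RNA per cell cannot be told apart.

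The ratio of summed mitochondrial to summed nuclear subunit reads, with Cycs in the nuclear sum, was 1.20, 1.02 and 1.85 in double mutants and 1.68, 1.71 and 1.11 in Mdmx-Tg, against 0.827, 0.833 and 0.917 in Pu.1-URE-/- and 0.933, 1.08 and 0.596 in Wild-type libraries. The 6 transgenic libraries lay at or above 1.02, and 5 of the 6 others lay below them; Wild-type 2, at 1.08, overlapped. On the log2 scale the ratio was higher by 0.81 in Mdmx-Tg than in Wild-type and by 0.61 in double mutants than in Pu.1-URE-/- libraries, a mean difference of 0.71 for the transgene. Without double mutant 3 the difference between double mutants and Pu.1-URE-/- libraries was 0.37. For loss of the element the mean difference was -0.07. The ratio is a summary over chosen genes and was given no test.

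By complex, the difference with the transgene was greatest where the mitochondrial genome supplies the single subunit mt-Cytb. For complex III the ratio ran from 2.85 to 6.17 with the transgene and from 1.35 to 3.10 without it, a mean log2 difference of 1.08. For complex V it ran from 1.22 to 1.88 in transgenic and from 0.611 to 1.25 in other libraries, a difference of 0.65. For complex IV the ratio was 1.19 to 2.42 with the transgene and 0.967 to 1.48 without it, a difference of 0.47. Complex I, with 7 mitochondrial subunits, had the smallest difference, 0.34, with ratios of 0.312 to 0.455 in transgenic and 0.272 to 0.384 in other libraries. In all 4 complexes the transgenic and other libraries overlapped. Within the mitochondrial reads, mt-Cytb alone made up 37.4% to 48.9% in transgenic and 30.8% to 43.7% in other libraries.

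**Figure D1:**
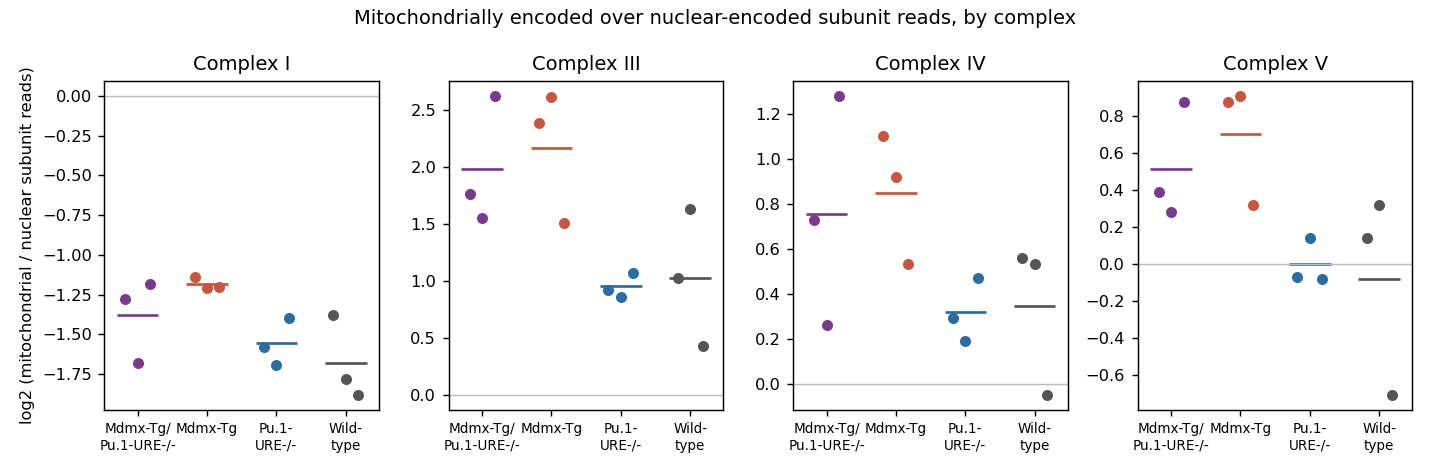
Log2 ratio of summed mitochondrially encoded to summed nuclear-encoded subunit reads for complexes I, III, IV and V, with 1 point per library and a line at each genotype's mean (n = 3). The means of both transgenic genotypes lie above those of Pu.1-URE-/- and Wild-type in each complex, with the largest gap in complex III and the smallest in complex I.

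The libraries with the highest ratio of summed mitochondrial to nuclear subunit reads had the fewest detected genes, but the relation did not hold throughout. Wild-type 3, with the lowest ratio (0.596), had 13403 genes with at least 10 reads, the fewest without the transgene. In the 6 transgenic libraries 12824 to 13684 genes had at least 10 reads, against 13403 to 14117 genes in libraries without the transgene, and the 3 libraries with the highest ratio (double mutant 3, Mdmx-Tg 2 and Mdmx-Tg 1) had 12952, 12824 and 13004. Without Wild-type 1, Mdmx-Tg 2 and double mutant 3 the mean transgene difference of the ratio was 0.57. Whether library complexity has a part in the result was not tested beyond the fits given below.

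For single genes, edgeR's quasi-likelihood test called no member with the transgene at an adjusted p under 0.05, where 0.0% of the 15012 genes were called. Mdm4 itself was not called in the averaged contrast, at 163 to 535 CPM with and 35.8 to 93.9 CPM without the transgene. At an unadjusted p under 0.05, edgeR's averaged transgene contrast listed 21 of 104 members, 14 higher and 7 lower, against 16.3% of all genes (8.26% higher and 8.08% lower). Of the 14 higher, 9 were mitochondrial; of the 7 lower, all were nuclear subunits. The median log2 change was 0.54 over the 13 mitochondrial genes, -0.01 over the 80 nuclear subunits tested and 0.00 over all genes tested. DESeq2 called 10 members in the same contrast at an adjusted p under 0.05, where it called 6.77% of all genes, and limma-voom called 0. The 10 were mt-Atp8, mt-Co1, mt-Co2, mt-Cytb, mt-Nd2, mt-Nd4, mt-Nd5 and mt-Nd6, all higher, and Atp5d and Ndufv1, both lower. The share of all genes called by limma-voom is not given here, nor for the comparisons below where it called no member. Those counts of 0 have no share to be set against.

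The mitochondrial complex I genes encode the proton-pumping core of the membrane arm. mt-Nd4 stood at 744, 729.9 and 891 CPM in double mutants and 939, 1087 and 898 CPM in Mdmx-Tg, against 708, 539 and 723 CPM in Pu.1-URE-/- and 634, 672 and 488 CPM in Wild-type libraries. All 6 transgenic libraries were above all 6 others. mt-Nd5 stood at 302, 302 and 497 CPM in double mutants and 410.5, 399 and 362 CPM in Mdmx-Tg, against 222, 236 and 265 CPM in Pu.1-URE-/- and 295, 218 and 244 CPM in Wild-type libraries, again with no overlap. mt-Nd6 stood at 102, 111 and 164 CPM in double mutants and 116, 165 and 126 CPM in Mdmx-Tg, against 63.1, 88.1 and 73.6 CPM in Pu.1-URE-/- and 88.7, 65.8 and 75.8 CPM in Wild-type libraries. It had the smallest p of the 13, with an averaged log2 change of 0.78 ± 0.17 (SE; edgeR adjusted p = 0.139). mt-Nd6 is the only one of the 13 encoded on the other strand, and whether reads were counted by strand is not given in the sources used here, so its reads cannot be told apart from those of RNA opposite to it.

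The remaining mitochondrial complex I genes were less uniform. mt-Nd2 averaged 231 ± 24.8 CPM in double mutants and 314 ± 52.1 CPM in Mdmx-Tg, against 173 ± 17.9 CPM in Pu.1-URE-/- and 196 ± 40.0 CPM in Wild-type libraries (SD, n = 3 each). mt-Nd1 averaged 1323 ± 7.01 CPM in double mutants and 1353 ± 156 CPM in Mdmx-Tg, against 1230.3 ± 81.7 CPM in Pu.1-URE-/- and 1178 ± 74.8 CPM in Wild-type libraries, a log2 change of 0.15 ± 0.10 with edgeR adjusted p = 0.49. mt-Nd4l had a log2 change of -0.12 ± 0.17 and mt-Nd3 of -0.21 ± 0.67 (SE), within their errors. mt-Nd3 had only 0.456 to 7.1 CPM in a library.

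mt-Cytb, a heme-carrying subunit of complex III, held more reads than any other mitochondrial gene and had the largest averaged change in the main fit. That rank did not hold with the number of detected genes in the fit or without the 3 libraries named above, where mt-Nd6 was higher. mt-Cytb stood at 8416, 9623 and 16607 CPM in double mutants and 13079, 16311 and 8955 CPM in Mdmx-Tg, against 5413, 5493 and 6242 CPM in Pu.1-URE-/- and 5269, 10108 and 4437 CPM in Wild-type libraries. Wild-type 2 lay among the transgenic libraries. The averaged log2 change was 0.98 ± 0.25 (SE), 1.98 times the level without the transgene, with edgeR adjusted p = 0.139.

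Of the complex IV genes, mt-Co1 carries the catalytic heme-copper center and mt-Co2 the site that receives electrons from cytochrome c. mt-Co1 stood at 2641, 2716 and 4382 CPM in double mutants and 3799.8, 4336 and 2747 CPM in Mdmx-Tg, against 2296, 1994 and 2611 CPM in Pu.1-URE-/- and 2432, 2493 and 1757 CPM in Wild-type libraries. mt-Co2 stood at 809, 929 and 1166 CPM in double mutants and 945, 928 and 834 CPM in Mdmx-Tg, against 662, 657 and 658 CPM in Pu.1-URE-/- and 554, 783 and 540.1 CPM in Wild-type libraries. Neither gene overlapped between the 6 transgenic and the 6 other libraries. mt-Co3, the third core subunit, averaged 1054 ± 102 CPM in double mutants and 1115 ± 96.7 CPM in Mdmx-Tg, against 1018 ± 151 CPM in Pu.1-URE-/- and 1009 ± 109 CPM in Wild-type libraries, a log2 change of 0.10 ± 0.12 (SE).

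The mitochondrial subunits of complex V form part of the membrane-embedded proton channel. mt-Atp8 averaged 1245 ± 209 CPM in double mutants and 1494 ± 344 CPM in Mdmx-Tg, against 936 ± 127 CPM in Pu.1-URE-/- and 901 ± 166 CPM in Wild-type libraries. mt-Atp6 averaged 5624 ± 694 CPM in double mutants and 6237 ± 576 CPM in Mdmx-Tg, against 4199 ± 534 CPM in Pu.1-URE-/- and 4211 ± 1320.4 CPM in Wild-type libraries. The averaged log2 changes were 0.57 ± 0.15 for mt-Atp8 and 0.49 ± 0.16 for mt-Atp6 (SE), with edgeR adjusted p = 0.141 and 0.183.

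In all, 5 of the 104 members (mt-Co1, mt-Co2, mt-Nd4, mt-Nd5 and mt-Nd6) had every transgenic library above every other library, where 0.626% of all genes did, and no member had every transgenic library below the others, where 0.506% of genes did. In a fit that also held how many genes each library detected, the averaged log2 change was 0.52 for mt-Cytb, 0.66 for mt-Nd6, 0.51 for mt-Nd5, 0.43 for mt-Nd4, 0.38 for mt-Co1, 0.35 for mt-Co2 and 0.37 for mt-Atp8, all with edgeR adjusted p of 0.778 or more. Without Wild-type 1, Mdmx-Tg 2 and double mutant 3, the changes were 0.60 for mt-Cytb, 0.62 for mt-Nd6, 0.51 for mt-Nd5, 0.39 for mt-Nd4, 0.40 for mt-Co1 and 0.39 for mt-Co2. In Mdmx-Tg against Wild-type, mt-Cytb was at 0.29 with that term, below mt-Nd6 at 0.64 and mt-Nd4 at 0.62. For mt-Cytb, mt-Co1, mt-Co2 and mt-Atp8 the averaged change with the covariate was smaller by more than 1.5 times.

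**Figure D2:**
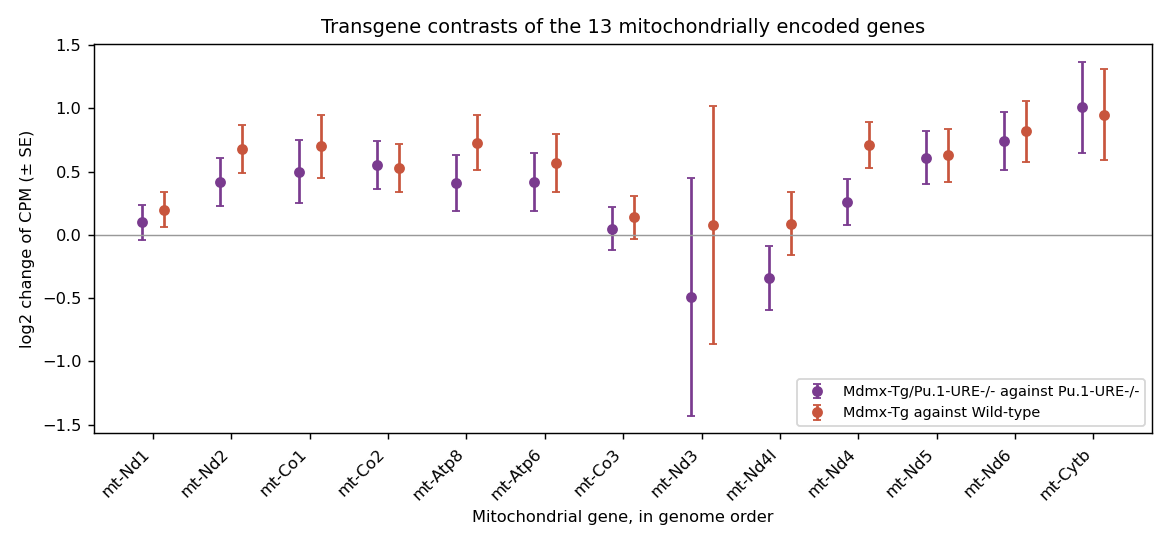
Log2 change of CPM with its standard error for the 13 mitochondrially encoded genes in genome order, for double mutants against Pu.1-URE-/- and for Mdmx-Tg against Wild-type (3 libraries each). In this fit mt-Cytb is highest in both comparisons, at 1.01 and 0.95, while mt-Nd1, mt-Co3, mt-Nd3 and mt-Nd4l lie near or below 0.20.

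The 2 comparisons were made on separate libraries. In the series of nearby mouse numbers described below, double mutants had 1 library in series a and 2 in series c. Pu.1-URE-/- had 1 library in series a and 2 in series b. Y-linked RNA reached 222 CPM in double mutants and at most 5.7 CPM in Pu.1-URE-/- libraries. The transgene is therefore not all that differs between those 2 genotypes. In Mdmx-Tg against Wild-type, 15 members had an unadjusted edgeR p under 0.05, against 10.5% of all genes; the 9 higher (5.09% of all genes) were all mitochondrial, the 6 lower (5.41%) all nuclear, and all 13 mitochondrial log2 changes were above 0. edgeR and limma-voom called no member there at an adjusted p under 0.05, and DESeq2 called 4 (mt-Atp8, mt-Nd2, mt-Nd4 and mt-Nd6), where it called 2.19% of all genes. In double mutants against Pu.1-URE-/- libraries, 9 members had an unadjusted edgeR p under 0.05, against 10.7% of all genes. Of these 9, 1 was lower (5.27% of all genes) and 8 were higher (5.4%), among them mt-Cytb, mt-Nd6, mt-Co2 and mt-Nd5. edgeR, limma-voom and DESeq2 called no member in that comparison, where edgeR called 0.0% and DESeq2 2.19% of genes. In the interaction of transgene and element loss the 3 tools called no member, edgeR called 0.0% of genes, and 3 members (5.8% of all genes) had an unadjusted p under 0.05, Ndufs1 and Ndufaf7 above 0 (2.83% of genes) and Cox6a2, a gene with almost no reads, below 0 (2.97%). Ndufs1, the largest iron-sulfur subunit of complex I, had an interaction of 0.79 ± 0.30 on the log2 scale (SE; edgeR adjusted p = 0.843).

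Several mitochondrial genes share sequence, which limits how their reads can be assigned. The coding regions of mt-Atp8 and mt-Atp6 overlap at chrM:7927-7969 on the plus strand, and those of mt-Nd4l and mt-Nd4 at chrM:10167-10173 (GRCm38). The overlaps are shown because the reads of these bases belong to both genes of each pair. mt-Nd5 and mt-Nd6 also share 14 bases, on opposite strands, at chrM:13552-13565.
mt-Atp8 and mt-Atp6 overlap: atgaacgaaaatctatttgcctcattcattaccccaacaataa
mt-Nd4l and mt-Nd4 overlap: atgctaa

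The annotation also lists pseudogenes on chromosome 1 that are near-identical copies of mitochondrial genes. Gm10925 has the same 678 bases as mt-Atp6 and was assigned 36.3% of the reads of the pair, and Gm28437 has the same 783 bases as mt-Co3 and was assigned 47.1%. Gm29216 matches mt-Co1 at 482 of 483 aligned bases (37.0% of the pair's reads), and Gm28438 matches mt-Nd3 at 344 of 345 (71.9%). Gm28661 has the same 681 bases as mt-Co2 and was assigned 3.36% of the pair's reads, and Gm28439 has the same 876 bases as mt-Nd4 and was assigned 0.00885%. The split of reads between such copies is uncertain, so the levels of mt-Atp6, mt-Co3, mt-Co1, mt-Nd3, mt-Co2 and mt-Nd4 are as well. With the reads of the copies added, the difference of mean log2 CPM between the 6 transgenic and the 6 other libraries was 0.55 for mt-Atp6, 0.09 for mt-Co3, 0.61 for mt-Co1 and -0.29 for mt-Nd3, against 0.52, 0.10, 0.58 and -0.32 for the mitochondrial genes alone. With all copies added the mitochondrial to nuclear ratio differed by 0.68 on the log2 scale with the transgene.

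Per unit length (TPM, mean over the 12 libraries), the highest levels were those of mt-Atp8 at 21270.2, mt-Atp6 at 10629 and mt-Cytb at 9654. The highest nuclear member of each complex was Cox6b1 of complex IV at 1561 TPM, Uqcr11 of complex III at 1503 TPM, Ndufb8 of complex I at 1277 TPM, Atp5g1 of complex V at 1125 TPM and Sdhb of complex II at 562 TPM. The median level of the tested nuclear subunits was 359.8 TPM in complex I, 247.0 TPM in complex II, 650.4 TPM in complex III, 624 TPM in complex IV and 422 TPM in complex V, whereas the 8 assembly factors had a median of 46.2 TPM.

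With the transgene, the nuclear complexes stayed near their level without it. Their median log2 changes were 0.03 in complex I, -0.13 in complex II, -0.01 in complex III, -0.04 in complex IV and -0.09 in complex V, against 0.00 over all genes tested. The nuclear subunits with the smallest p were mostly lower. Ndufv1, the flavoprotein that accepts electrons from NADH, stood at 161, 232 and 182 CPM in double mutants and 124, 148 and 228 CPM in Mdmx-Tg, against 237, 246 and 234 CPM in Pu.1-URE-/- and 218, 299.6 and 298 CPM in Wild-type libraries. Double mutant 2 and Mdmx-Tg 3 lay within the range of the libraries without the transgene. The averaged log2 change was -0.51 ± 0.17 (SE; edgeR adjusted p = 0.187).

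Atp5d, the delta subunit in the rotating stalk of ATP synthase, stood at 93.8, 111 and 57.8 CPM in double mutants and 68.6, 52.7 and 130.1 CPM in Mdmx-Tg, against 143, 142 and 138 CPM in Pu.1-URE-/- and 130.5, 119 and 169 CPM in Wild-type libraries. Only Mdmx-Tg 3 overlapped the libraries without the transgene. The log2 change was -0.71 ± 0.23 (SE; edgeR adjusted p = 0.183). Without Mdmx-Tg 3, edgeR called 3 members in the averaged transgene contrast, where it called 2.85% of the genes tested in that fit: Atp5d at -0.96 (adjusted p = 0.0368), Ndufv1 at -0.67 (0.0433) and mt-Nd6 at 0.79 (0.0464). That was 1 of 12 fits with a single library left out, and the other 11 called no member in this contrast.

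Among the others named by p in their complex, Cox6a1, the widely expressed form of a complex IV subunit, averaged 193 ± 54.3 CPM in double mutants and 182 ± 54.4 CPM in Mdmx-Tg, against 278 ± 14.6 CPM in Pu.1-URE-/- and 247 ± 46.8 CPM in Wild-type libraries. Uqcrfs1, the Rieske iron-sulfur protein of complex III, averaged 136 ± 10.7 CPM in double mutants and 157 ± 36.3 CPM in Mdmx-Tg, against 169 ± 11.3 CPM in Pu.1-URE-/- and 204 ± 18.9 CPM in Wild-type libraries. Ndufa7, an accessory subunit of complex I, was higher on average, with 236 ± 40.7 CPM in double mutants and 269 ± 36.3 CPM in Mdmx-Tg, against 179 ± 25.2 CPM in Pu.1-URE-/- and 208 ± 9.55 CPM in Wild-type libraries (SD, n = 3 each). None of the 3 passed edgeR's adjusted threshold, with values of 0.221, 0.230 and 0.182.

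**Figure D3:**
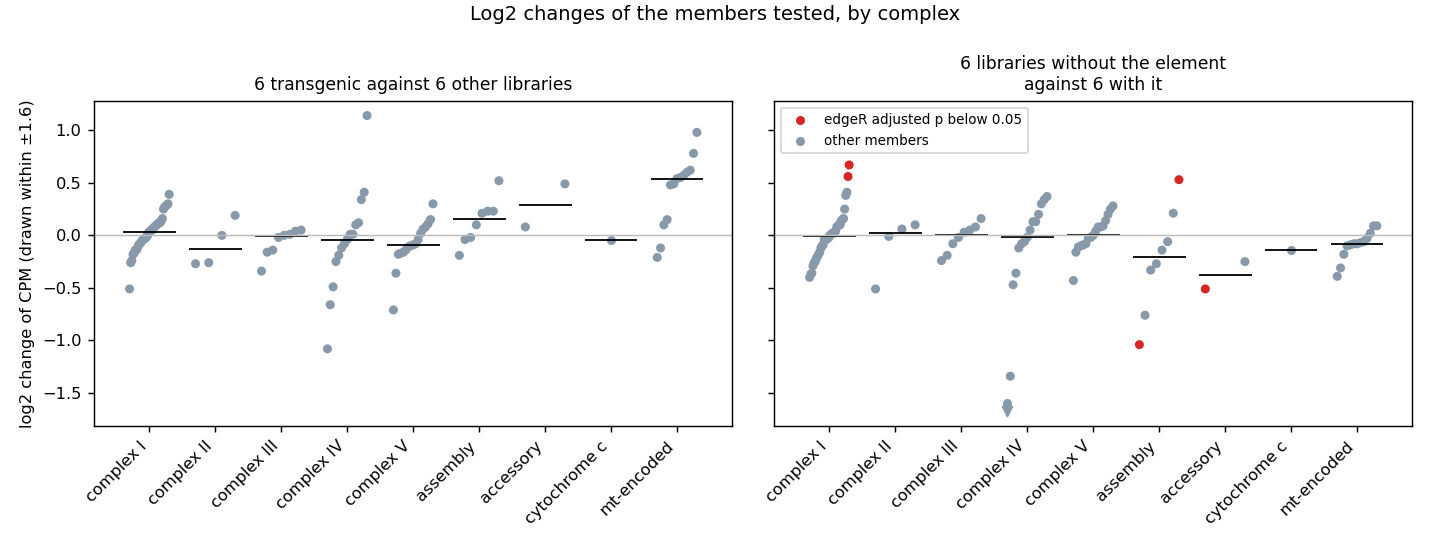
Log2 change of CPM for the 104 tested members by class, with a line at each class median. The left panel sets 6 transgenic against 6 other libraries, and the right panel 6 libraries without the element against 6 with it. With the transgene the mitochondrially encoded genes have a median of 0.54 and no nuclear class of complexes I to V lies beyond -0.13; red points are the 5 members called with loss of the element, and the triangle marks Cox6a2, whose value lies below the axis.

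Loss of the element changed few members. In the averaged contrast edgeR called 5 of 104 members, 3 higher and 2 lower, where 11.9% of all genes were called (8.08% higher and 3.81% lower). Ndufb3, Ndufv3 and Ndufaf3 were higher and Ndufaf4 and Cox7a2l lower. At an unadjusted p under 0.05 edgeR listed 17 members (26.9% of all genes), 6 higher (15.5%) and 11 lower (11.4%). The members' share of calls is below that of all genes, and their median log2 change was -0.03, against 0.00 over all genes. None of the 13 mitochondrial genes was called, and their median was -0.08. All 16 tested neutrophil markers, of 19 listed, were called higher in the same contrast, where 11.9% of all genes were called. Their median log2 change was 9.42. Chil3, Mmp8 and Mmp9 of that list were below 1 CPM in every library, also without the element. A marker could pass the filter on low counts through the libraries without the element alone. Among 12 markers of B and plasma cells 4 were lower (median log2 change -2.6), and of 9 megakaryocyte markers 3 were lower (-1.39). Of 8 monocyte and macrophage markers 1 was higher and 3 lower (-2.18). Yet their list's median summed level was 451 CPM in double mutants and 664 CPM in Pu.1-URE-/- libraries. It was 105 CPM in Mdmx-Tg and 113 CPM in Wild-type libraries, where the highest was 536 CPM. Of 5 T and NK cell markers 1 was higher and 1 lower (1.38), as of 9 mast cell and basophil markers (-0.74). The summed levels of both lists were higher in every library without the element than in any with it. None of 14 erythroid markers was called (-1.34). Of 13 markers of the gate and of stem cells, Flt3 and Cd48 were higher and Kit, Slamf1, Mecom, Meis1 and Gata2 lower. The part of such cells in the results that follow was not tested.

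Ndufb3, an accessory subunit of the membrane arm of complex I (chr1:58586384-58595964, plus strand, GRCm38), stood at 125, 131 and 99.4 CPM in double mutants and 169, 119.7 and 156 CPM in Pu.1-URE-/-, against 86.0, 75.5 and 93.1 CPM in Mdmx-Tg libraries and 78.4, 77.7 and 89.7 CPM in Wild-type libraries. Every library without the element lay above every library with it. The averaged log2 change was 0.67 ± 0.13 (SE; edgeR adjusted p = 0.00817), 1.59 times the level with the element.

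Ndufaf4 (chr4:24898083-24905001, plus strand) encodes an assembly factor that works with the product of Ndufaf3 early in the building of complex I. It stood at 24.8, 39.9 and 28.3 CPM in double mutants and 34.2, 43.1 and 23.6 CPM in Pu.1-URE-/-, against 62.0, 61.1 and 58.1 CPM in Mdmx-Tg libraries and 64.4, 81.7 and 71.6 CPM in Wild-type libraries. The groups did not overlap, and the level without the element was 0.488 times that with it (log2 change -1.04 ± 0.18, SE; edgeR adjusted p = 0.00415). Part of these reads lay on Ndufaf4-202, a transcript the annotation does not class as coding, which averaged 20.3 ± 4.86 CPM in double mutants and 16.9 ± 5.88 CPM in Pu.1-URE-/-, against 30.4 ± 3.79 CPM in Mdmx-Tg and 43.4 ± 10.9 CPM in Wild-type libraries. The main coding transcript Ndufaf4-201 averaged 8.27 ± 3.21 CPM in double mutants and 14.1 ± 3.00 CPM in Pu.1-URE-/-, against 25.2 ± 4.70 CPM in Mdmx-Tg and 24.5 ± 2.63 CPM in Wild-type libraries (SD, n = 3 each). Both transcripts averaged less in each genotype without the element than in either genotype with it.

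Ndufaf3 (chr9:108565537-108567434, minus strand) encodes the partner assembly factor and moved the other way. It stood at 66.7, 58.4 and 54.4 CPM in double mutants and 92.1, 67.9 and 67.7 CPM in Pu.1-URE-/-, against 44.8, 61.7 and 48.9 CPM in Mdmx-Tg libraries and 35.0, 46.1 and 45.2 CPM in Wild-type libraries. Mdmx-Tg 2 overlapped the double mutants. The log2 change was 0.53 ± 0.15 (SE; edgeR adjusted p = 0.0406).

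Cox7a2l (chr17:83501918-83517330, minus strand), a factor that links complexes III and IV into supercomplexes, stood at 137, 147 and 171 CPM in double mutants and 113, 144 and 162 CPM in Pu.1-URE-/-, against 214, 209.7 and 207 CPM in Mdmx-Tg libraries and 175, 212 and 226 CPM in Wild-type libraries. Every library without the element lay below every library with it. The log2 change was -0.51 ± 0.13 (SE; edgeR adjusted p = 0.0246).

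Ndufv3 (chr17:31520115-31531331, plus strand) encodes a small accessory subunit at the NADH-binding end of complex I and is known in mammals for a long and a short protein form. It stood at 151, 142 and 108 CPM in double mutants and 199, 144 and 176 CPM in Pu.1-URE-/-, against 106, 121 and 107 CPM in Mdmx-Tg libraries and 106, 75.7 and 107 CPM in Wild-type libraries. Double mutant 3 lay within the Mdmx-Tg range. The averaged log2 change was 0.56 ± 0.14 (SE; edgeR adjusted p = 0.0302).

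The authors' estimates split Ndufv3 mainly over 2 coding transcripts, and both need not move alike. The longer, Ndufv3-201 of 1582 bases, held 44.9%, 25.2% and 27.5% of the gene's reads in double mutants and 34.3%, 36.3% and 33.6% in Pu.1-URE-/-, against 27.0%, 20.2% and 12.9% in Mdmx-Tg and 29.1%, 15.2% and 18.5% in Wild-type libraries. It averaged 44.4 ± 20.5 CPM in double mutants and 59.9 ± 7.92 CPM in Pu.1-URE-/-, against 22.3 ± 7.71 CPM in Mdmx-Tg and 20.6 ± 9.64 CPM in Wild-type libraries. The shorter, Ndufv3-202 of 493 bases, averaged 85.1 ± 16.3 CPM in double mutants and 108 ± 17.2 CPM in Pu.1-URE-/-, against 84.4 ± 9.82 CPM in Mdmx-Tg and 72.8 ± 10.9 CPM in Wild-type libraries (SD, n = 3 each). Transcript levels are descriptions and were given no test. With an offset for transcript length, the gene's log2 change was 0.34 (edgeR adjusted p = 0.135).

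**Figure D4:**
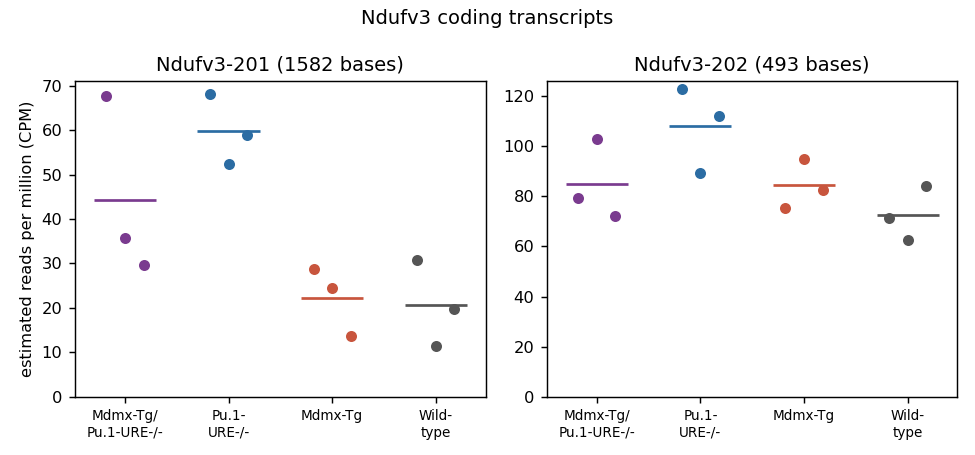
CPM of the long and the short coding transcript of Ndufv3, with 1 point per library and a line at each genotype's mean (n = 3). The long transcript lies at 29.6 to 68.2 CPM in the 6 libraries without the element and at 11.5 to 30.7 CPM in the 6 with it, while the ranges of the short transcript overlap more widely.

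**Figure D5:**
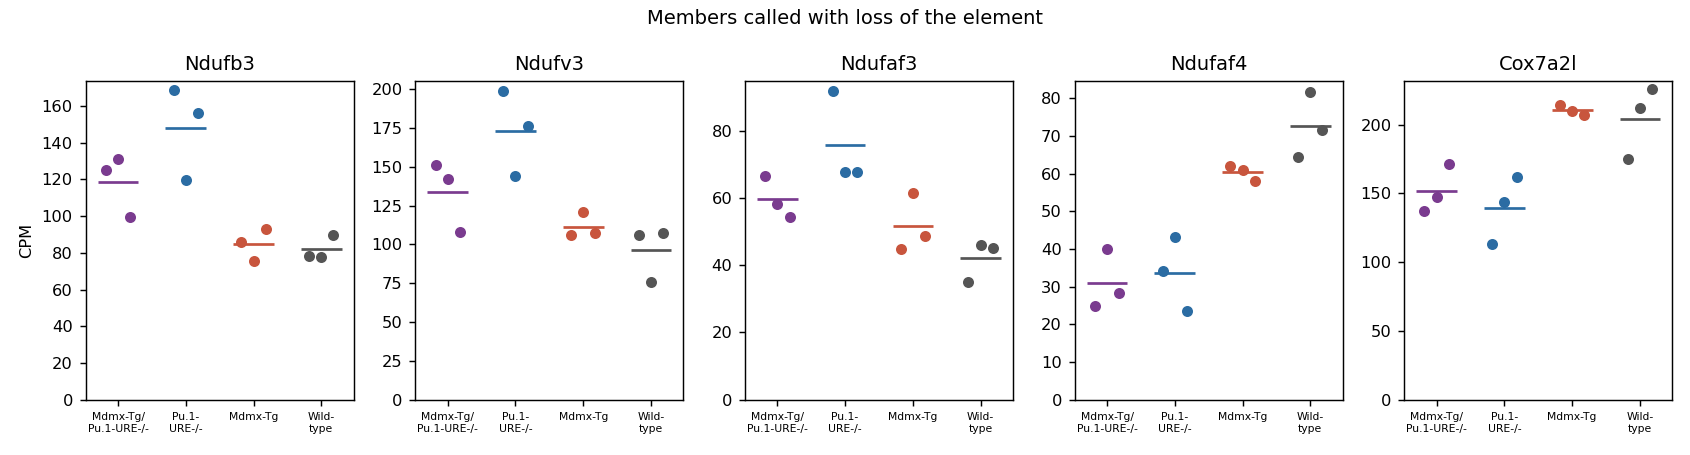
CPM of the 5 members called with loss of the element, with 1 point per library and a line at each genotype's mean (n = 3). Ndufb3 is higher, and Ndufaf4 and Cox7a2l are lower, in all 6 libraries of the 2 genotypes without the element than in the 6 libraries with it.

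Not all 5 calls were equally firm. Ndufb3 and Ndufaf4 passed edgeR's adjusted threshold whichever single library was left out. Cox7a2l did not pass without Pu.1-URE-/- 1 (adjusted p = 0.0661) or Wild-type 2 (0.0626), Ndufv3 passed only when Mdmx-Tg 2, double mutant 3 or Pu.1-URE-/- 2 was the one left out, and Ndufaf3 only when Mdmx-Tg 2 was. Without Wild-type 1, Mdmx-Tg 2 and double mutant 3 the calls were Ndufb3, Ndufaf4 and Cox7a2l.

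Taken by genotype, edgeR called 4 members in Pu.1-URE-/- against Wild-type libraries, where 4.71% of genes were called (3.84% higher and 0.866% lower). Ndufb3 had a log2 change of 0.86, Ndufv3 of 0.85, Ndufaf3 of 0.85 and Ndufaf4 of -1.11, with edgeR adjusted p = 0.0244, 0.0383, 0.0436 and 0.0309. At an unadjusted p under 0.05 there were 13 members (19.8% of all genes), 4 higher (11.6%) and 9 lower (8.18%). The labels give mouse numbers but name no series. For a check, nearby numbers were grouped here into 3 series, which are not known to be batches. Pu.1-URE-/- and Wild-type libraries share only 1 of 3 series, with 2 Pu.1-URE-/- libraries and 2 Wild-type libraries each in a series of their own. With these series as a block edgeR called none of the 4, where 1.71% of all genes were called. None of the 4 called passed without Pu.1-URE-/- 1, without Pu.1-URE-/- 3, or without any 1 of the 3 Wild-type libraries. In double mutants against Wild-type libraries edgeR called 1 member, Ndufaf4 (log2 change -1.23 ± 0.25, SE; edgeR adjusted p = 0.0269), where 3.34% of genes were called (2.47% higher and 0.873% lower). There 13 members had an unadjusted p under 0.05 (18.5% of all genes), 8 higher (10.8%) and 5 lower (7.67%). Ndufaf4 did not pass without double mutant 1, double mutant 3 or any 1 Wild-type library. Without Mdmx-Tg 3, Ndufaf4 and Uqcrfs1 (log2 change -0.65) passed there, and the share of all genes called in that fit is not given here. These 2 comparisons share the Wild-type libraries.

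In double mutants against Mdmx-Tg libraries edgeR and limma-voom called no member, where edgeR called 2.32% of genes (1.67% higher and 0.646% lower); 6 members had an unadjusted p under 0.05, 2 higher and 4 lower, against 16.9% of all genes (10.7% higher and 6.16% lower). DESeq2 called Ndufaf4 (log2 change -1.02) and Cox7a2l (-0.54) there, where it called 8.59% of genes. In the averaged contrast limma-voom called 6 members, the 5 and Ndufb7 (log2 change 0.38, limma adjusted p = 0.0328), where it called 14.4% of genes. DESeq2 called 11 members there, where it called 20.1% of genes. They were the same 5 and, with log2 changes of 0.34 to -0.56, Ndufb7, Atp5g1, Ndufa10, Ndufab1, Ndufb6 and Sdhb. Ndufb7, another accessory subunit of the complex I membrane arm, stood at 389, 473 and 377 CPM in double mutants and 417, 391 and 415 CPM in Pu.1-URE-/-, against 296, 361 and 314 CPM in Mdmx-Tg libraries and 267, 312 and 348 CPM in Wild-type libraries. With Ndufb3 it was 1 of 2 members with every library without the element above every other, where 4.89% of genes were, and Cox7a2l and Ndufaf4 were the 2 below, where 1.89% of genes were.

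Sdhb, the iron-sulfur subunit of succinate dehydrogenase, averaged 495 ± 128 CPM in double mutants and 388 ± 105 CPM in Pu.1-URE-/-, against 630 ± 143 CPM in Mdmx-Tg and 621 ± 129.8 CPM in Wild-type libraries (SD, n = 3 each), with edgeR adjusted p = 0.110. By class, the median log2 change with loss of the element was -0.01 in nuclear complex I, 0.02 in complex II, 0.01 in complex III, -0.02 in complex IV and 0.00 in complex V, and -0.21 over the 8 assembly factors, of which 1 was called higher and 1 lower.

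The promoters of the member called highest and the member called lowest are shown, because one encodes a subunit of complex I and the other an assembly factor of that complex, and they moved in opposite directions. Each is 230 bases, ending 20 bases before the start of transcription in RefSeq (GRCm38.p6), at chr1:58586147-58586376 on the plus strand for Ndufb3 and chr4:24897833-24898062 on the plus strand for Ndufaf4. Capitals mark the 1 match to the NRF1 motif, searched as GCGCA and GCGC with any 1 base between them, which lies 113 to 104 bases before the Ndufaf4 start. NRF1 is a transcription factor known for respiratory-chain genes.
Ndufb3 promoter: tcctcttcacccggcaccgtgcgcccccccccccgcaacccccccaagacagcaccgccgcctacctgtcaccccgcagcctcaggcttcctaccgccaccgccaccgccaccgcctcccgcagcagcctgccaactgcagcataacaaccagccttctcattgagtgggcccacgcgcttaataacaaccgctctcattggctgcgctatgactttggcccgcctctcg
Ndufaf4 promoter: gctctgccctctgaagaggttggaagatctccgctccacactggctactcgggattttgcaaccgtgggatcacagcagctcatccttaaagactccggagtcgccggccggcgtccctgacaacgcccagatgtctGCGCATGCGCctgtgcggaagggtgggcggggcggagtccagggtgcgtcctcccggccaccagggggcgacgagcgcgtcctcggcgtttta

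For 75 member genes 80 such promoters were given. On either strand, the NRF1 motif was found in 15.0% of them, against 3.03% of all 32851 promoters. The GABP motif CCGGAAG was found in 11.2% of member and 5.56% of all promoters, and the YY1 motif, AAGATGG followed directly by CGG, in 1.25% of member and 0.286% of all promoters. The PU.1 motif GAGGAAGT was found in 2.5% of member and 2.17% of all promoters, and in none of the promoters of the 5 called members. The letters of a motif in such a window are a description and not a site.

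The isoforms known from other tissues were low in these cells. Cox4i2, of lung, ranged from 0.282 to 8.55 CPM, Cox6a2, of heart and muscle, from 0 to 1.75 CPM, and Cox7a1, also of heart and muscle, from 0 to 1.35 CPM over the 12 libraries. Cox6a2 had no read in any double mutant library. Cox7b2 and Cox8c had no read, Cox8b at most 0.0452 CPM and Ndufa4l2 at most 0.858 CPM. Cox6b2, known from testis, was the exception, at 26.6 ± 12.2 CPM in double mutants and 26.3 ± 11.9 CPM in Mdmx-Tg, against 47.7 ± 5.30 CPM in Pu.1-URE-/- and 36.3 ± 7.51 CPM in Wild-type libraries (SD, n = 3 each), a log2 change of -0.66 ± 0.27 with the transgene (SE; edgeR adjusted p = 0.257).

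Other genes of the organelle were followed as lists. With the transgene edgeR called no gene of the lists of mitochondrial gene expression (40 tested, 11 at an unadjusted p under 0.05), mitochondrial ribosomal proteins (78 tested, 12), biogenesis regulators (16 tested, 2), further assembly factors (46 tested, 8), the tricarboxylic acid cycle (28 tested, 5) and mitochondrial content and import (25 tested, 5). In this contrast edgeR called 0.0% of all genes, and 16.3% of all genes had an unadjusted p under 0.05. The median log2 changes of these lists ran from -0.05 to 0.08. With loss of the element, 2 of 40 genes of mitochondrial gene expression were called, both lower, which is 5.0% of the list against 11.9% of all genes. Top1mt, the mitochondrial DNA topoisomerase, averaged 10.8 ± 2.57 CPM in double mutants and 7.75 ± 2.67 CPM in Pu.1-URE-/-, against 30.5 ± 10.7 CPM in Mdmx-Tg and 22.4 ± 7.92 CPM in Wild-type libraries (log2 change -1.52 ± 0.29, SE; edgeR adjusted p = 0.00696). Fastkd2, a mitochondrial RNA-binding protein, had a log2 change of -0.75 ± 0.21.

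Of the 78 mitochondrial ribosomal proteins, Mrpl44 and Mrps15 were higher and Mrpl16, Mrpl23, Mrpl50 and Mrps22 lower without the element, 7.69% of the list against 11.9% of all genes, and the list's median was -0.20. Mrpl16 had the smallest adjusted p of these, with a log2 change of -0.90 ± 0.16 (SE; edgeR adjusted p = 0.00537). Of 16 biogenesis regulators, Hif1a and Sirt3 were higher, 12.5% of the list. Hif1a, the oxygen-responsive transcription factor, averaged 51.1 ± 24.9 CPM in double mutants and 95.1 ± 18.6 CPM in Pu.1-URE-/-, against 19.6 ± 9.78 CPM in Mdmx-Tg and 27.9 ± 7.12 CPM in Wild-type libraries. Sirt3, the mitochondrial deacetylase, averaged 379 ± 104 CPM in double mutants and 188 ± 30.1 CPM in Pu.1-URE-/-, against 207 ± 24.8 CPM in Mdmx-Tg and 157 ± 20.1 CPM in Wild-type libraries (SD, n = 3 each). Of 46 further assembly factors Cmc2 was higher and Coa5 lower (4.35% of the list), both tied to complex IV. Of 25 genes of content and import, the fusion gene Mfn2 was higher and the chaperonin Hspd1 and the cristae gene Chchd3 lower, and none of 28 tricarboxylic acid cycle genes was called, with 3 at an unadjusted edgeR p under 0.05.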

How the data were processed

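Per the labels' protocols, polyA RNA of sorted cells was sequenced on the BGISEQ-500 with paired ends. The submitters' processing notes name FastQC, Salmon, DESeq2, mm10 and GRCm38 without versions. Estimated counts, not normalized, and TPM were deposited for each transcript, per the file headers, with its length and effective length. Of 116248 transcripts, 115995 matched GENCODE M21 with their version, and the counts of a gene's transcripts were added up and rounded to whole numbers. After filterByExpr (at least 10 counts, and 15 in total) and TMM scaling, genes were fitted with edgeR 4.0.16 in R 4.3.3, with 1 mean per genotype over 12 libraries and 8 contrasts; p-values were adjusted by Benjamini-Hochberg over 15012 genes, with a threshold of 0.05. Averaged contrasts weigh both states of the other change equally. DESeq2 1.42.0, limma-voom (limma 3.58.1) and other settings were alternatives. Same-numbered libraries did not deviate together (correlations -0.153 to 0.0856 over 18 pairs), so they were not treated as pairs. Replicate 1 of each genotype had a mouse number from 351 to 358, and these correlations cannot show whether same-numbered libraries shared a batch. The rule for named genes took every called member, the 13 mitochondrial genes, the 2 smallest p and the highest TPM per complex, and the tissue isoforms; the text gives a subset of these, and some others were named because they made up a count. The members and the lists were chosen with earlier results of these data known. Promoter sequences and starts come from RefSeq, with motifs searched in Python 3.11.15. Atp5o has 2 gene identifiers, 1 with 418 reads, and counts as 2 members.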

Additional observations from a re-analysis of the deposited data

Results flagged for a closer look

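Reads were assigned to nuclear copies of mitochondrial genes, which the comparisons do not use. Over the 12 libraries, Gm10925 had 1822284 reads, Gm29216 had 1048878, Gm28437 had 593783, Gm28438 had 6411 and Gm13340 had 258. These genes were flagged because they carry signal outside the genes measured, and 4 of the 5 match their mitochondrial gene at all, or all but 1, of the aligned bases. Gm13340 on chromosome 2, which differs from mt-Co1 at 37 of 1545 bases, had 11 to 36 reads in a library, against 107704 to 221070 for mt-Co1. How the reads of identical copies divide between the 2 genomes was not tested.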

How the results depend on the processing

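The ratio of mitochondrial to nuclear reads kept its transgene difference under the alternatives run for it. The averaged difference was 0.55 to 0.71 with other sums, TPM or added copies. It was 0.58 to 0.81 with each library left out (0.37 to 0.80 for double mutants against Pu.1-URE-/-). Without the 3 doubted libraries (Wild-type 1, Mdmx-Tg 2 and double mutant 3) it was 0.57. The alternatives given for the ratio do not include the detected-gene covariate, the Y-linked covariate or the series block. Counts of called members moved more, and the cause was not tested. Most of these counts are given without the share of all genes called in the same fit. They do not show whether members moved apart from other genes. With DESeq2 they were 10 with the transgene on average, 4 in Mdmx-Tg against Wild-type, 11 with loss of the element on average, 7 in Pu.1-URE-/- against Wild-type (12.5% of all genes), 4 in double mutants against Wild-type (10.3%) and 2 against Mdmx-Tg. For loss of the element (5 members) the count was 3 with the series formed here as a block and 3 without the doubted libraries. For Pu.1-URE-/- against Wild-type (4 members) it was 2 with no low-count filter, 2 with only the genotypes compared, 0 with the series block, 1 with Y-linked expression as a covariate and 0 without the doubted libraries. For double mutants against Wild-type (1 member) it was 0 with the Y-linked covariate, 0 without the doubted libraries and 0 with the detected-gene covariate. Leaving out each library in turn gave 2 to 6 members for loss of the element, 0 to 4 for Pu.1-URE-/- against Wild-type, 0 to 2 for double mutants against Wild-type and 0 to 3 for the transgene. The fit with a replicate block called 5 for loss of the element, 3 for Pu.1-URE-/- against Wild-type, 1 for double mutants against Wild-type and 0 in the other contrasts; it gained Sdhb (edgeR adjusted p = 0.0183 on average and 0.0402 against Wild-type) and lost Ndufaf3 in both and Ndufv3 against Wild-type. The number is shared, but the main fit did not treat the libraries as paired.

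Signs turned only for genes near 0 or with few reads. For mt-Nd3, the averaged transgene change was 0.32 with the Y-linked covariate, -0.63 to 0.05 with each library left out (0.05 without double mutant 3), 0.34 without the doubted libraries and 0.50 with the detected-gene covariate. In Mdmx-Tg against Wild-type it was -0.08 with the Y-linked covariate and -0.39 to 0.47 with each library left out in turn (-0.39 without Wild-type 2 or Mdmx-Tg 3), and in double mutants against Pu.1-URE-/- 0.73 with the Y-linked covariate and -1.35 to 0.01 with each library left out (0.01 without double mutant 3). mt-Co3 in that comparison was -0.02 with a length offset and -0.07 to 0.12 with each library left out (below 0 without Wild-type 1, Pu.1-URE-/- 1 or double mutant 2), and mt-Nd4l in Mdmx-Tg against Wild-type was -0.00 to 0.26 (-0.00 without Mdmx-Tg 3). The doubted libraries and the detected-gene covariate were chosen after seeing the data.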
